A study of Mus musculus with 108 samples.

Results

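Kit-detected cells were compared with Kit-low cells in cultures of mouse germline stem cells. A cell was called Kit-detected when its Kit signal was at least 5 RPM (the reads of a gene scaled to the size of the library) and Kit-low when it was under 5 RPM. The members were chosen by their Kit signal, so Kit levels are a description and carry no test. The classes held 31 Kit-detected and 76 Kit-low cells. They came from 30 GSCLC1, 24 GSCLC4, 30 GSC1 and 24 GSC2 cells, less 1 GSC1 cell that stood apart from its line, had a Kit signal of 0 and was left out.

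The cells were germline stem cell-like cells (GSCLCs), which descend from pluripotent stem cells and were taken from reconstituted testes, and germline stem cells (GSCs), which are spermatogonial stem cells grown from testes. They formed 4 culture lines, named GSCLC1, GSCLC4, GSC1 and GSC2. The labels place the origin of GSC2 in separate testes of postnatal day 7 and that of GSCLC4 in reconstituted testes held at 34 °C for 3 weeks; for GSC1 and GSCLC1 no origin beyond the cell type is given in the labels. All cells shared the background strain 129/SvJcl x C57BL/6 and the AcrAct_EGFP reporter, and all were grown with GDNF, bFGF, LIF and EGF, and both classes came from the same cultures. Each library was made from 1 trypsin-dispersed cell by SC3-seq, which reads the 3′ ends of polyadenylated RNA. A line is 1 culture and its cells are not replicates. Each line therefore gave 1 mean per class, and the 4 lines were the units of every test. The p-values rest on the spread between these lines, which in the gene tests was drawn toward that of all genes at a like level.

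Kit encodes a receptor tyrosine kinase whose ligand, Kit ligand, is made in the testis by Sertoli cells. In mouse testis, undifferentiated spermatogonia carry little Kit, and the receptor is gained when spermatogonia enter differentiation under retinoic acid. The basic helix-loop-helix factors Sohlh1 and Sohlh2, the DM-domain factor Dmrtb1 and the de novo DNA methyltransferase Dnmt3b are commonly used beside Kit to mark that step, and Stra8 is induced by retinoic acid on the way to meiosis.

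Kit (Entrez 16590, chr5:75574987-75656722 in RefSeq on GRCm38.p6) separated the cells into a class at or near 0 and a class well above it. In the Kit-detected cells the lowest, median and highest signal was 9.68, 43.4 and 153.4 RPM, which came from 30 reads in the lowest and 616 in the highest cell. Among the Kit-low cells, 63 had a signal of 0, 9 lay above 0 and under 1 RPM, and 4 lay from 1 RPM up to the threshold. The cells just inside the threshold had 9.68, 9.93 and 12.7 RPM, and those just outside had 3.49, 1.68 and 1.55 RPM, so no cell lay between 3.49 and 9.68 RPM. At the depth of these libraries 5 RPM stood for 9.99 to 30.2 reads, and all 44 Kit values above 0 were whole reads within 0.05 read.

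The share of Kit-detected cells was 30% in GSCLC1 (9 of 30, exact 95% binomial interval 14.7 to 49.4%), 29.2% in GSCLC4 (7 of 24, 12.6 to 51.1%), 17.2% in GSC1 (5 of 29, 5.85 to 35.8%) and 41.7% in GSC2 (10 of 24, 22.1 to 63.4%). The 4 intervals overlapped, and both GSCLC shares lay between the GSC shares. Over all lines the share was 28.97% (20.6 to 38.5%); the intervals cover the counting of cells only. The share depended on the threshold: at 1 and 20 RPM it was 27.6 and 10.3% in GSC1, 30 and 16.7% in GSCLC1, 33.3 and 20.8% in GSCLC4, and 41.7 and 37.5% in GSC2. Within GSC1, whose cells carry serial numbers in 2 separate runs, 3 of 13 cells in the lower run and 2 of 16 in the higher run were Kit-detected. The 5 Kit-detected cells of GSC1 had 14.2, 16.8, 49.0, 67.8 and 70.9 RPM. The median of the Kit-detected cells was 28.4 RPM in GSCLC1 (9.68 to 85.8), 68.9 RPM in GSCLC4 (9.93 to 153.4) and 52.8 RPM in GSC2 (12.7 to 140.8). The ranges overlapped between all lines.

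**Figure D1:**
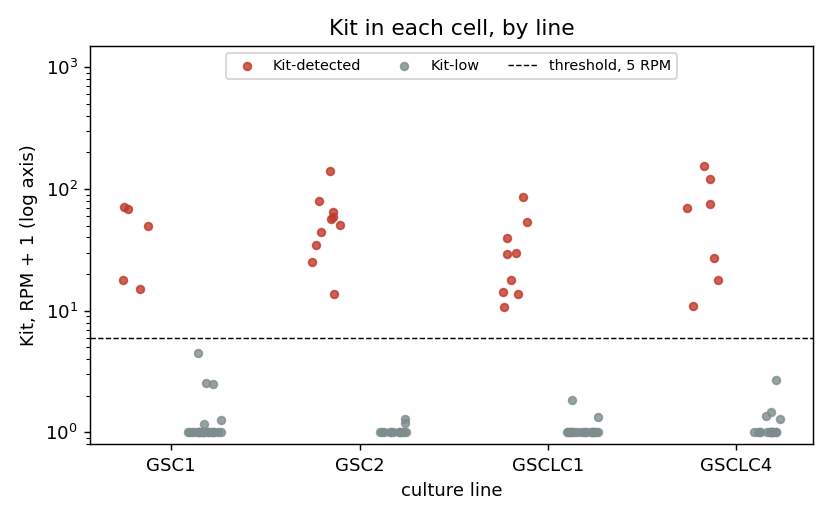
Kit signal of each cell (RPM + 1, log axis) in the 4 culture lines, with Kit-detected cells on the left of each pair, Kit-low cells on the right and the threshold of 5 RPM dashed. Kit-detected cells lie between 9.68 and 153.4 RPM, and 63 of the 76 Kit-low cells lie at 0.

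The germ cell identity of both classes was checked first. Dazl, an RNA-binding protein of germ cells, was above 5 RPM in all 31 Kit-detected and all 76 Kit-low cells, with means over lines of 3478 ± 313 RPM and 3423 ± 163.2 RPM (SD, n = 4 lines each). The RNA helicase Ddx4 averaged 840 ± 116.1 RPM in Kit-detected cells and 931 ± 120.7 RPM in Kit-low cells. Kit is also a marker of mast cells, melanocytes and Leydig cells, and genes of these cells were looked up. Of 10 mast cell genes, 10 had a median of 0 over the cells, and the proteases Tpsab1, Tpsb2, Mcpt4 and Cma1 and the receptor genes Fcer1a and Ms4a2 were listed at 0 in every cell. The summed mast cell signal had a median of 0 in both classes and reached 74.9 RPM in a Kit-detected and 117.1 RPM in a Kit-low cell. The pigment enzymes Dct and Tyrp1, the steroid enzymes Cyp11a1 and Cyp17a1 and the Sertoli cell hormone Amh were at 0 in every cell. Other members of those lists were detected in some cells. The mast cell genes Hdc, Gata2 and Srgn reached 5 RPM in 4, 2 and 0 Kit-detected and in 1, 7 and 2 Kit-low cells. Among Sertoli cell genes, Sox9, Wt1 and Clu did so in 6, 5 and 9 Kit-detected and in 6, 16 and 19 Kit-low cells. The summed Sertoli cell signal had a median of 8.39 RPM in Kit-detected and 1.38 RPM in Kit-low cells. All 7 melanocyte genes had a median of 0 over the cells, and their sum reached 110.3 RPM in a Kit-detected and 132.6 RPM in a Kit-low cell, with Mitf at or above 5 RPM in 2 Kit-detected and 10 Kit-low cells and Pmel in 4 of each. All 8 Leydig and peritubular genes also had a median of 0, while the median of their sum was 11.4 RPM in Kit-detected and 0.52 RPM in Kit-low cells (highest sums 371 and 262 RPM). Of these, Star reached 5 RPM in 2 Kit-detected and 6 Kit-low cells, and Pdgfra, a growth factor receptor gene, in 11 of 31 Kit-detected and 14 of 76 Kit-low cells, with means over the cells of 25.99 and 10.2 RPM. The part of such cells or their RNA in the comparisons was not tested. Fibroblast and feeder cell genes were the highest of these lists, with a median sum of 222 RPM in Kit-detected and 219 RPM in Kit-low cells and highest sums of 754 and 2712 RPM; most of it came from Fn1 and Vim, and Lum was at 0.

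Kit-detected cells had more detected genes (signal above 0) than Kit-low cells of the same line. The medians were 8852 and 8502 genes in GSCLC1, 9960 and 9821 in GSCLC4, 9441 and 8751 in GSC1, and 9494 and 8621 in GSC2, with the Kit-detected cells given first. The mean difference over lines was 513 ± 330 genes (SD, n = 4 lines), higher in 4 of 4 lines. The exact two-sided sign-flip permutation test gave p = 0.13, the smallest that 4 pairs allow, and 0.25 after Benjamini-Hochberg adjustment over 4 cell measures. When each cell was thinned to 2.00 M reads, the mean difference was 396 ± 228 genes (4 of 4 lines, exact p = 0.13). With a Kit threshold of 20 RPM the mean difference was 295 genes, and 186.5 genes after thinning (exact p = 0.375). Estimated depth ran from 2.00 M to 6.04 M reads per cell with a median of 3.47 M; it was higher in Kit-detected cells of both GSCLC lines and lower in those of both GSC lines (exact p = 0.5). Spike-in signal, which falls as a cell holds more RNA, was higher in Kit-detected cells of 2 lines and lower in those of the other two (exact p = 0.625). The part of detected gene number in the gene comparisons was not tested.

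**Figure D2:**
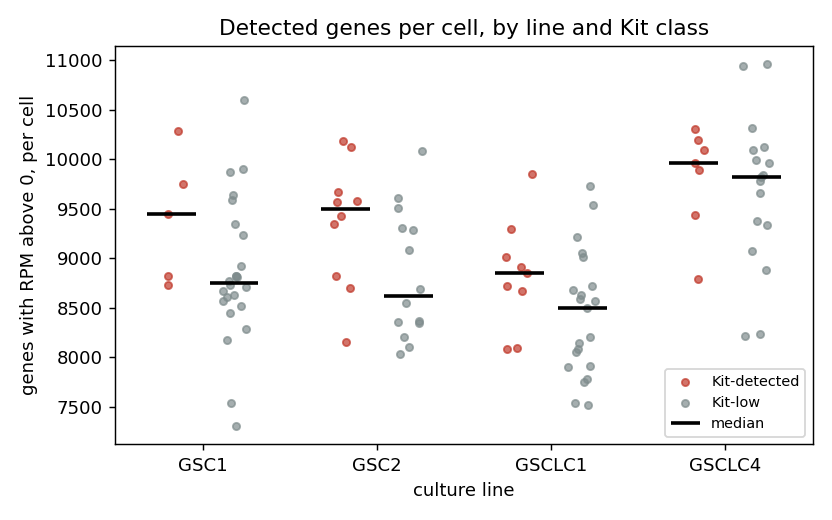
Number of genes with a signal above 0 in each cell, by line, with Kit-detected cells on the left of each pair and Kit-low cells on the right; black bars are medians. The median of the Kit-detected cells is higher in each of the 4 lines, and the cells of the classes overlap in all of them.

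Across all genes, no gene passed the threshold. The test was limma on the log2(mean RPM + 1) of each class with the line as a block, adjusted over 10125 tested genes, a scale that understates the differences of low genes. At an adjusted p under 0.05, 0 genes (0%) were called, and the lowest adjusted p was 0.872. At an unadjusted p under 0.05 there were 561 genes (5.54%), of which 207 (2.04%) were higher and 354 (3.5%) were lower in Kit-detected cells. The difference was positive for 42.8% of tested genes, positive in all 4 lines for 5.82% and negative in all 4 for 7.38%. That balance depended on the summary over cells. With the mean of log2 values over cells in place of the log2 of the mean, 511 genes were higher and 134 lower at an unadjusted p under 0.05, so 79.2% of them were higher against 36.9% in the test above, and again 0 passed the adjusted threshold. With rescaling by the median ratio 47.3% were higher. The median log2 difference of all tested genes was −0.07 in the first summary and 0.12 in the mean of log2 values, a shift of 0.19. List medians are therefore given relative to the median of all tested genes. The Kit-detected means rested on 5 to 10 cells per line and the Kit-low means on 14 to 24.

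No gene of spermatogonial differentiation passed the test, from which Kit itself was left out. Of 16 genes on that list, 12 were tested, 2 had a positive difference (42.8% of all tested genes did) and 0 passed the threshold. The median of the 12 was 0.24 below that of all tested genes on the log2 scale, and 0.32 below it with the mean of log2 values. Without GSCLC1 the list median lay 0.01 above that of all genes, and without GSCLC4 it lay 0.27 below. By line, the list median was −0.40 in GSCLC1, −0.38 in GSCLC4, −0.05 in GSC1 and 0.04 in GSC2. The medians of all tested genes in the same lines were −0.02, −0.0002, −0.12 and 0.

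Sohlh1 (chr2:25842995-25847248, minus strand) is a transcription factor that in mouse binds E-boxes, CANNTG, in target promoters including that of Kit. It averaged 14.2 RPM in GSCLC1, 0 in GSCLC4, 50.5 in GSC1 and 10.2 in GSC2 for Kit-detected cells, against 20.8, 4.12, 40.5 and 19.3 RPM for Kit-low cells of the same lines. It was lower in Kit-detected cells of 3 lines and higher in those of GSC1, and the classes overlapped. The log2 difference was −0.85 (SE 0.59, adjusted p = 0.895). Sohlh1 reached 5 RPM in 7 of 31 Kit-detected cells (22.6%) and 22 of 76 Kit-low cells (28.9%). By line that share was higher in Kit-detected cells of 2 lines and lower in those of 2. The mean difference was −4.74 ± 10.4 percentage points (SD, exact sign-flip p = 0.5). At thresholds of 1 and 20 RPM for Sohlh1 it was −11.5 and 0.43 points. In the 7 Kit-detected cells of GSCLC4 the gene was listed at 0, where 3 of the 17 Kit-low cells reached 5 RPM.

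The promoters of Kit and Sohlh1 are shown because they are the target and the factor of this step; each runs from 250 bases before to 50 after the RefSeq start on GRCm38.p6, 5′ to 3′ on the strand of the gene, with E-boxes (CANNTG, which reads the same way on both strands) in capitals.
Kit, chr5:75574737-75575036, plus strand: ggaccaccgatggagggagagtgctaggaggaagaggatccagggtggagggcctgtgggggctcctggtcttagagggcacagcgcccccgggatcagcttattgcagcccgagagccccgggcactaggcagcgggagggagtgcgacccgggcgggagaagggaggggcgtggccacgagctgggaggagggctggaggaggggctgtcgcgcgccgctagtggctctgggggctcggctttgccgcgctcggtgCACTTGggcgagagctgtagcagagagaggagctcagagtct
Sohlh1, chr2:25847199-25847498, minus strand: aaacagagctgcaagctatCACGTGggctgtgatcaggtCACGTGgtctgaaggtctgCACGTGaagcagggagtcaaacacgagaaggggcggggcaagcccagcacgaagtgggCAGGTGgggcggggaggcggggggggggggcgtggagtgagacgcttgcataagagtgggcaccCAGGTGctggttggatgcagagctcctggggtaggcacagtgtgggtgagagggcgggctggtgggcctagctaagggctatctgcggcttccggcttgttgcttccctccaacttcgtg
The Kit window held 1 E-box and the Sohlh1 window 5, of which 3 were CACGTG. Of 27025 mouse promoter windows of the same length, 72.1% held an E-box and 7.24% held CACGTG. A match of letters is a description and was not tested as a binding site.

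Sohlh2 (chromosome 3), the partner of Sohlh1, was widely detected, in 29 of 31 Kit-detected cells (93.5%) and 64 of 76 Kit-low cells (84.2%) at 5 RPM or more. Means were 89.7, 88.0, 125 and 114.7 RPM in Kit-detected cells of GSCLC1, GSCLC4, GSC1 and GSC2, against 109.4, 104.7, 86.9 and 40.2 RPM in Kit-low cells. It was lower in Kit-detected cells of both GSCLC lines and higher in those of both GSC lines (log2 difference 0.37, SE 0.30, adjusted p = 0.917), and without GSC2 the difference was at 0 (log2 −0.005).

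Dmrtb1 (chr4:107676288-107704011), which in mouse acts at the change from mitosis to meiosis, had the largest difference among the tested genes of the list, on the Kit-low side. Its mean signal was 6.23 RPM in GSCLC1, 5.96 in GSCLC4, 0.055 in GSC1 and 8.68 in GSC2 for Kit-detected cells, against 23.5, 26.02, 7.20 and 8.58 RPM for Kit-low cells. It was lower in Kit-detected cells of 3 lines and level in GSC2. The log2 difference was −1.67 (SE 0.68, unadjusted p = 0.0300, adjusted p = 0.872). It reached 5 RPM in 6 of 31 Kit-detected cells (19.4%, 7.45 to 37.5%) and 25 of 76 Kit-low cells (32.9%, 22.5 to 44.6%). The intervals pool the cells of 4 cultures and cover the counting of cells only. That share was lower in Kit-detected cells of 4 of 4 lines, by a mean of 16.1 ± 11.8 percentage points (SD), with an exact p of 0.13 and 0.688 after adjustment over 11 genes. At thresholds of 1 and 20 RPM for Dmrtb1 the share was lower in 3 of 4 lines (exact sign-flip p = 0.25 each).

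Dnmt3b (chr2:153649411-153687730) averaged 26.8, 79.9, 99.2 and 60.4 RPM in Kit-detected cells of GSCLC1, GSCLC4, GSC1 and GSC2 and 60.1, 82.4, 69.7 and 78.9 RPM in Kit-low cells. The classes overlapped (log2 difference −0.26, SE 0.31, adjusted p = 0.946), and the sign turned without GSCLC1 (0.03). It reached 5 RPM in 22 of 31 Kit-detected cells (70.97%) and 56 of 76 Kit-low cells (73.7%). Stra8 was low everywhere and did not pass the filter on low values. Mean levels were 1.64, 2.19, 2.13 and 0.062 RPM in Kit-detected cells, against 11.9, 3.85, 3.39 and 4.74 RPM in Kit-low cells of the same lines. It was lower in Kit-detected cells of 4 of 4 lines, and 3 of 31 Kit-detected and 13 of 76 Kit-low cells reached 5 RPM (9.68% and 17.1%).

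The D-type cyclins, which drive entry into the cell cycle and of which Ccnd2 accompanies spermatogonial differentiation in mouse, were lower on average in Kit-detected cells without passing the test. Ccnd2 was the most abundant, at 725 ± 84.2 RPM in Kit-detected and 790 ± 129 RPM in Kit-low cells (SD, n = 4 lines each; log2 −0.12, adjusted p = 0.925). The log2 differences of Ccnd1 and Ccnd3 were −0.54 and −0.68 (adjusted p = 0.872 and 0.917). The X-linked homeobox gene Rhox13 had 74.8 ± 42.6 RPM in Kit-detected cells and 92.1 ± 12.7 RPM in Kit-low cells (log2 −0.45, adjusted p = 0.892). The sign of Ccnd2 turned with the mean of log2 values (0.06).

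Taking Sohlh1, Dmrtb1 and Dnmt3b together at 5 RPM, 1 of 31 Kit-detected cells (3.23%) and 7 of 76 Kit-low cells (9.21%) had all 3. None of the 3 was reached in 6 Kit-detected cells (19.4%) and 10 Kit-low cells (13.2%), 1 was reached in 16 and 36 cells, and 2 in 8 and 23 cells. The difference in these counts was not tested.

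**Figure D3:**
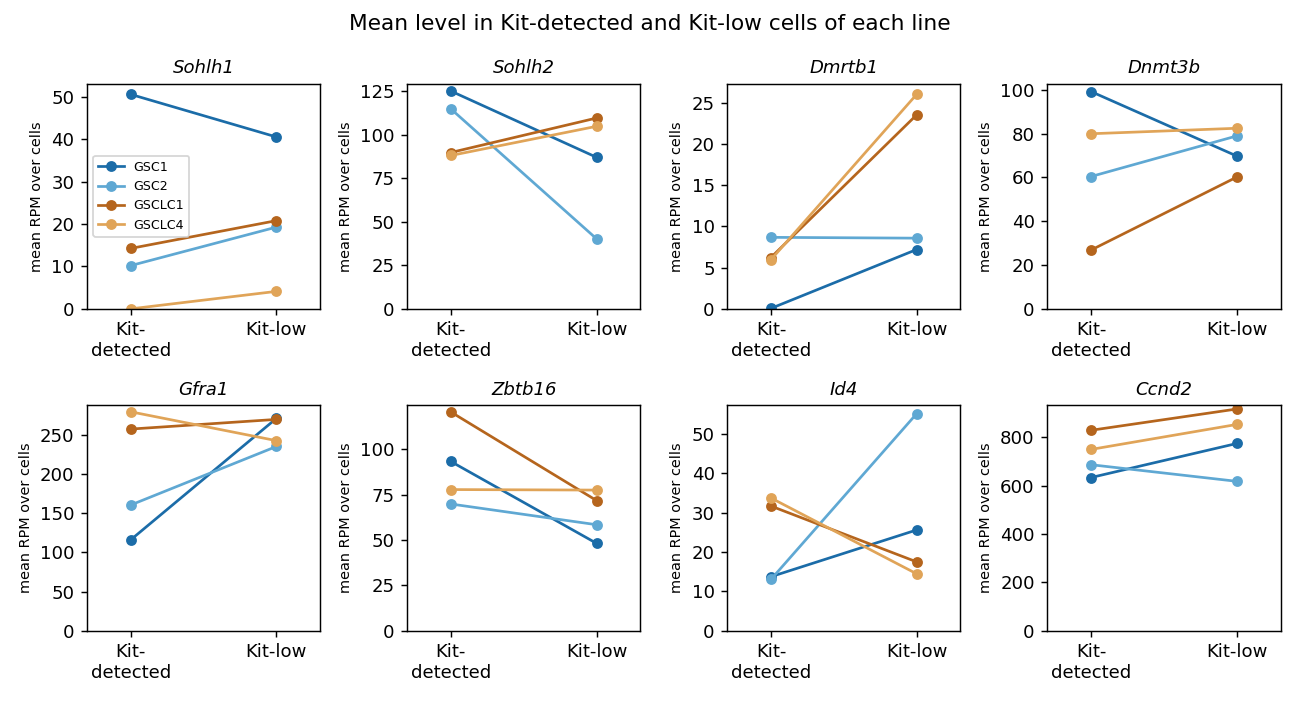
Mean signal (RPM) over the Kit-detected and the Kit-low cells of each culture line for differentiation genes (Sohlh1, Sohlh2, Dmrtb1, Dnmt3b), stem cell genes (Gfra1, Zbtb16, Id4) and Ccnd2; each line joins the 2 classes of 1 culture. Sohlh2 and Id4 slope in opposite directions in GSC and GSCLC lines, and no gene passed the threshold.

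Of 33 genes of undifferentiated spermatogonia, 10 had a median of 0 over the cells. Gfra1 and Ret form the receptor for GDNF, and Gfra1 was at or above 5 RPM in all 31 Kit-detected and all 76 Kit-low cells. Of 28 tested genes on this list, 16 had a positive difference, 0 passed, and the list median was 0.12 above that of all tested genes; it lay 0.01 above without GSC2, and 0.12 below when GSC1 was split by serial number into 2 blocks. Gfra1 averaged 258, 280, 116.1 and 160.6 RPM in Kit-detected cells of GSCLC1, GSCLC4, GSC1 and GSC2, against 270, 243, 271 and 235 RPM in Kit-low cells. It was lower in Kit-detected cells of both GSC lines and close to level in both GSCLC lines (log2 −0.41, SE 0.22, adjusted p = 0.872). Ret had 130 ± 42.9 RPM in Kit-detected and 112 ± 25.5 RPM in Kit-low cells (log2 0.18, adjusted p = 0.959), and the GDNF-induced factor Etv5 had 267 ± 65.5 and 301 ± 14.7 RPM (log2 −0.21, adjusted p = 0.917). Without GSC2 the Ret difference turned to −0.07.

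Zbtb16 (also called Plzf), a transcription factor needed to keep mouse spermatogonial stem cells, was higher in Kit-detected cells of 4 of 4 lines, though by little in GSCLC4. It averaged 120.6, 77.8, 93.3 and 69.8 RPM in Kit-detected cells of GSCLC1, GSCLC4, GSC1 and GSC2, against 71.7, 77.5, 48.1 and 58.4 RPM in Kit-low cells (log2 0.49, SE 0.26, adjusted p = 0.874). Epcam, a surface adhesion molecule, was also higher in 4 of 4 lines, with 209 ± 69.1 RPM in Kit-detected and 148.7 ± 36.2 RPM in Kit-low cells (log2 0.45, adjusted p = 0.872). The Polycomb gene Bmi1 had 108.3 ± 21.2 and 69.7 ± 24.9 RPM (log2 0.67, adjusted p = 0.872), but 44.6% of its values above 0 were not whole reads, so its level is uncertain.

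Id4, an inhibitor of helix-loop-helix factors that marks stem cell-rich spermatogonia, had opposite directions in the cell types, without passing the test. Its mean signal was 31.7, 33.7, 13.7 and 13 RPM in Kit-detected cells of GSCLC1, GSCLC4, GSC1 and GSC2, against 17.5, 14.4, 25.6 and 55.1 RPM in Kit-low cells. It was thus higher in Kit-detected cells of both GSCLC lines and lower in those of both GSC lines. The difference between the cell types was 2.42 on the log2 scale (unadjusted p = 0.0196, adjusted p = 0.993). Shisa6, a membrane protein of stem-like spermatogonia, and the T-box factor T had log2 differences of −1.53 and −1.20, with opposite signs in GSCLC4 and the other 3 lines (adjusted p = 0.880 and 0.909).

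Nanos2, an RNA-binding protein that holds mouse germ cells in the stem cell state, was under the filter on low values and higher in Kit-low cells. Nanos2 averaged 0.353, 0, 0 and 2.83 RPM in Kit-detected cells of GSCLC1, GSCLC4, GSC1 and GSC2, against 7.72, 4.76, 2.41 and 26.7 RPM in Kit-low cells, so it was lower in Kit-detected cells of 4 of 4 lines. It reached 5 RPM in 1 of 31 Kit-detected cells (3.23%) and 10 of 76 Kit-low cells (13.2%), a mean difference of −13.1 ± 10.5 percentage points with an exact p of 0.13 (0.688 adjusted over 11 genes). At a threshold of 1 RPM for Nanos2 the share was lower in 3 of 4 lines and higher in GSCLC1 (exact sign-flip p = 0.375). At 20 RPM it was lower in 4 of 4 lines (exact sign-flip p = 0.13). In the test without a filter the log2 difference was −2.46 (SE 0.46, unadjusted p = 0.00501, adjusted p = 0.838). Only 1 of 24 Kit-low cells in GSC1 and 1 of 21 in GSCLC1 reached 5 RPM, so those means rest on few cells.

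Progenitor genes mark spermatogonia primed for differentiation. Of 10 on the list, 5 had a median of 0 over the cells and 5 were tested, 1 had a positive difference and the median was 0.06 below that of all tested genes, and with each line left out it ran from −0.14 (without GSC2) to 0.19 (without GSCLC1) relative to that of all genes. Neurog3 reached 5 RPM in 0 of 31 Kit-detected cells, for which the exact interval reaches 11.2%, and in 3 of 76 Kit-low cells. Sox3 reached 5 RPM in 5 of 31 Kit-detected cells (16.1%) and 14 of 76 Kit-low cells (18.4%). Its mean signal was 1.89 and 3.92 RPM in Kit-detected cells of GSCLC1 and GSCLC4, against 4.50 and 29.6 RPM in Kit-low cells, and 20.3 and 6.02 RPM in Kit-detected cells of GSC1 and GSC2, against 2.48 and 0.473 RPM in Kit-low cells. The RNA-binding protein Lin28b had 32.6 ± 24.0 and 41.97 ± 16.1 RPM (log2 −0.50, adjusted p = 0.917), and the zinc finger factor Sall4 had 112 ± 49.8 and 116.9 ± 15.9 RPM (log2 −0.15, adjusted p = 0.967), Kit-detected cells first.

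The partners of the receptor were examined next. The ligand gene Kitl had a median of 0 over the cells of both classes. Its means were 0, 0, 0 and 0.036 RPM in Kit-detected cells of GSCLC1, GSCLC4, GSC1 and GSC2, against 2.09, 0.941, 1.11 and 4.88 RPM in Kit-low cells. No Kit-detected cell and 4 of 76 Kit-low cells (5.26%) reached 5 RPM, so the Kit-low means rest on few cells of the larger class. Without the filter the log2 difference was −1.54 (SE 0.32, unadjusted p = 0.00688, adjusted p = 0.838). In that test 579 of 19716 genes were lower and 283 higher in Kit-detected cells at an unadjusted p under 0.05. Of 42 genes of Kit signalling, 35 were tested, 15 had a positive difference, 0 passed and the list median was 0.03 below that of all tested genes. The ubiquitin ligase Cblb was higher in Kit-detected cells of 4 of 4 lines (6.63 ± 3.49 against 4.08 ± 3.45 RPM; log2 0.70, adjusted p = 0.935). The mTORC1 subunit Rptor had 23.7 ± 20.4 RPM in Kit-detected and 33.2 ± 15.5 RPM in Kit-low cells (log2 −0.65, adjusted p = 0.902).

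Retinoic acid pathway genes showed no common shift. Of 20 genes 11 were tested, 5 had a positive difference and the median was 0.07 below that of all tested genes, and with each line left out it ran from −0.41 (without GSCLC4) to 0.18 (without GSC1) relative to that of all genes. Rec8, a meiotic cohesin subunit that retinoic acid induces, was lower in Kit-detected cells of 4 of 4 lines, at 4.71, 19.02, 3.63 and 2.73 RPM in GSCLC1, GSCLC4, GSC1 and GSC2, against 20.4, 37.5, 10.7 and 5.99 RPM in Kit-low cells (log2 −1.27, SE 0.58, unadjusted p = 0.0475, adjusted p = 0.872). The receptor gene Rara had 6.90 ± 7.20 and 8.94 ± 2.62 RPM in Kit-detected and Kit-low cells (log2 −0.72, adjusted p = 0.936).

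Genes of early meiosis were detected in both classes. Of 24 listed, 19 were tested, 8 had a positive difference, and the median was 0.01 below that of all tested genes (0.11 above it without GSC1). Sycp1, the transverse filament of the synaptonemal complex, was higher in Kit-detected cells of 4 of 4 lines, at 97.7, 214, 70.02 and 122.1 RPM in GSCLC1, GSCLC4, GSC1 and GSC2, against 62.4, 144.4, 51.6 and 97.1 RPM in Kit-low cells (log2 0.49, SE 0.22, unadjusted p = 0.0436, adjusted p = 0.872). Sycp2 of the lateral element did not go with it (log2 −0.96, adjusted p = 0.872), with 6.36 RPM in Kit-detected cells of GSC1, against 83.3 RPM in Kit-low cells of that line, and differences of at most 0.34 in size elsewhere. Gm1564, annotated as Meioc, which prolongs meiotic prophase in mouse, was lower in 4 of 4 lines (24.4 ± 13.8 against 36.3 ± 7.86 RPM; log2 −0.72, adjusted p = 0.876).

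Among 20 core germ cell genes, all tested, 10 had a positive difference and the median was 0.05 above that of all tested genes. The largest differences of the list went in opposite directions, with log2 −0.96 for Tdrd9 (adjusted p = 0.914) and 0.95 for Sox30 (adjusted p = 0.876). Tex11, an X-linked meiotic gene, was higher in Kit-detected cells of 4 of 4 lines (97.7 ± 43.98 against 60.5 ± 33.3 RPM; log2 0.68, unadjusted p = 0.0371, adjusted p = 0.872). Of 12 tested genes of DNA methylation, 8 had a positive difference and the median was 0.17 above that of all tested genes; without GSCLC1 it lay 0.04 below. The largest difference of that list was on the Kit-low side, in Mbd1, at 15.8 ± 15.2 RPM in Kit-detected and 20.8 ± 4.39 RPM in Kit-low cells. Its log2 difference was −1.10 (adjusted p = 0.892), and it was higher in Kit-detected cells of 2 lines. The chromatin remodeller Hells, which aids DNA methylation, was higher in 4 of 4 lines, at 208 ± 60.5 RPM in Kit-detected and 162.95 ± 45.1 RPM in Kit-low cells (log2 0.35, adjusted p = 0.872).

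**Figure D4:**
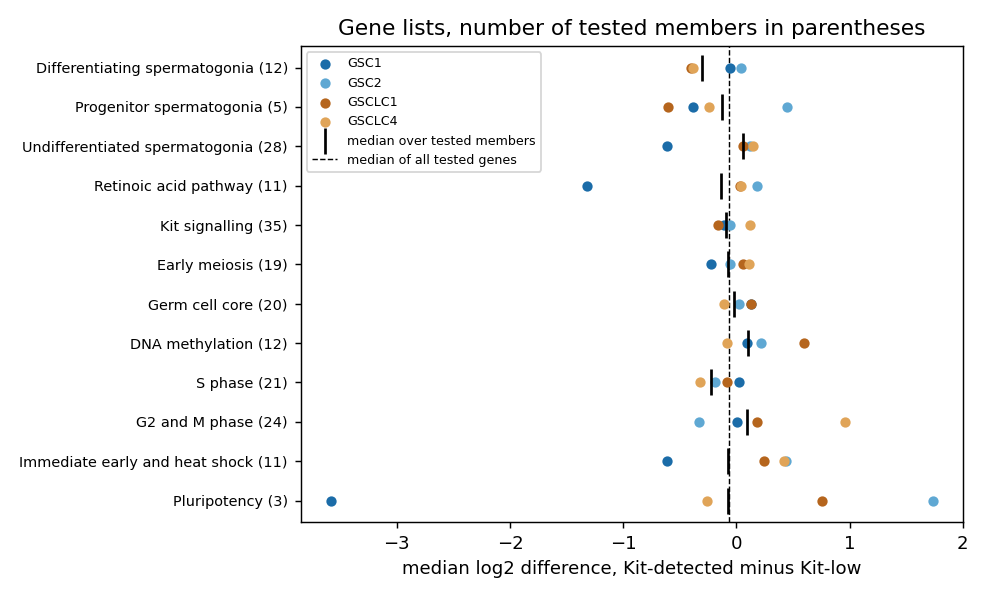
Median log2 difference (Kit-detected minus Kit-low) of the tested members of 12 gene lists, as a coloured point for each culture line and a black bar for the median of the differences averaged over lines; the dashed line marks the median of all tested genes. The differentiating list lies 0.24 below the dashed line and the G2 and M list 0.16 above it, with GSCLC4 at 0.95 and GSC2 at −0.33.

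The cell cycle lists lay on opposite sides of the median of all tested genes. Of 24 genes of G2 and M phase, all tested, 19 had a positive difference (42.8% of all tested genes did). Of the 19, 4 had an unadjusted p under 0.05 (2.04% of all tested genes were higher at that level), and 0 passed the adjusted threshold. The median of the 24 was 0.16 above that of all tested genes, and 0.40 above it with the mean of log2 values. Without GSCLC4 it lay 0.07 below. At a Kit threshold of 1 RPM, 13 of the 24 had a positive difference (46.7% of all tested genes did). At 20 RPM, 12 did (35.7% of all tested genes). The list median lay 0.06 and 0.13 above that of all tested genes at these thresholds. By line, the list median was 0.18 in GSCLC1, 0.95 in GSCLC4, 0.01 in GSC1 and −0.33 in GSC2. Of 21 tested S phase genes, 4 had a positive difference, 2 were lower at an unadjusted p under 0.05 (3.5% of all tested genes), and the median was 0.16 below that of all tested genes; without GSCLC4 it lay 0.01 above.

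Cdc20, which activates the anaphase-promoting complex, and Ccnb2, a B-type cyclin, had the largest differences in the G2 and M list. Cdc20 averaged 192, 365, 205 and 135 RPM in Kit-detected cells of GSCLC1, GSCLC4, GSC1 and GSC2, against 127, 81.8, 108.5 and 99.4 RPM in Kit-low cells. The log2 difference was 1.02 (SE 0.26, unadjusted p = 0.00197, adjusted p = 0.872), and all 4 Kit-detected means lay above all 4 Kit-low means. Ccnb2 averaged 203, 399, 233 and 274 RPM in Kit-detected cells, against 141.05, 85.1, 183.5 and 156.2 RPM in Kit-low cells of the same lines (log2 0.97, SE 0.27, unadjusted p = 0.00291, adjusted p = 0.872). All 4 Kit-detected means of Ccnb2 also lay above all 4 Kit-low means. Both genes were picked as the largest differences of the list, so the separation of their means is no added result. The share of all tested genes that separate in this way is not given. Single cells did overlap: Cdc20 ran from 0.23 to 874 RPM with a median of 192 RPM in Kit-detected cells, and from 0 to 558 RPM with a median of 68.5 RPM in Kit-low cells.

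The promoters of Cdc20 and Ccnb2 are shown because these genes had the largest differences of the list; the windows are those described above, and capitals mark CCAAT and TTTGAA, the letters of the CCAAT box and of a cell cycle homology region (CHR) that many G2 and M genes share, searched on both strands.
Cdc20, chr4:118437294-118437593, minus strand: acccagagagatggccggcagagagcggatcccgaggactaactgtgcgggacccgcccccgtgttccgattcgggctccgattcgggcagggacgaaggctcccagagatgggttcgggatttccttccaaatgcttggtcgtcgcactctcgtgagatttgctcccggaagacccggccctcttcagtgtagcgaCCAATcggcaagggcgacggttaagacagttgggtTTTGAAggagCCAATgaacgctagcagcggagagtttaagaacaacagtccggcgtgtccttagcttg
Ccnb2, chr9:70421505-70421804, minus strand: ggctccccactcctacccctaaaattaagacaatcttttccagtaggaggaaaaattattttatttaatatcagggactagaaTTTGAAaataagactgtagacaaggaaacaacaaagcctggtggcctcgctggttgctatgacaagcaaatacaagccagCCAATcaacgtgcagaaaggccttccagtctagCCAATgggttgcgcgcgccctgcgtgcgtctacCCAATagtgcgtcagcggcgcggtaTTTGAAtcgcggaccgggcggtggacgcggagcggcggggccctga
The Cdc20 window held 2 CCAAT and 1 TTTGAA, and the Ccnb2 window 3 CCAAT and 2 TTTGAA. Of all 27025 windows, 37.9% held CCAAT and 18.1% held TTTGAA.

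The conjugating enzyme Ube2c, a partner of the anaphase-promoting complex, was higher in Kit-detected cells of 4 of 4 lines, at 229, 688, 397 and 297 RPM in GSCLC1, GSCLC4, GSC1 and GSC2, against 204, 161.6, 291 and 291 RPM in Kit-low cells (log2 0.68, unadjusted p = 0.0262, adjusted p = 0.872). Most of that difference lay in GSCLC4. Ccnb1 was higher in 3 lines and lower in GSC2 (545 ± 224 against 383 ± 39.2 RPM; log2 0.42, adjusted p = 0.872), with 46.7% of its values not whole reads, and the spindle motor Kif11 was higher in the same 3 lines (log2 0.83, adjusted p = 0.872). On the S phase side were subunits of the replication helicase. Mcm6 was lower in Kit-detected cells of 4 of 4 lines (314 ± 57.1 against 399 ± 41.1 RPM; log2 −0.35, unadjusted p = 0.0330, adjusted p = 0.872), as was Mcm3 (181.3 ± 35.6 against 234 ± 33.7 RPM; log2 −0.38). Mcm2 was lower in 3 lines (584 ± 129 against 720 ± 148.9 RPM; log2 −0.30, unadjusted p = 0.0384). The licensing factor Cdc6 went the other way on average (log2 0.50, adjusted p = 0.931), higher in Kit-detected cells of both GSC lines and lower in those of both GSCLC lines.

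**Figure D5:**
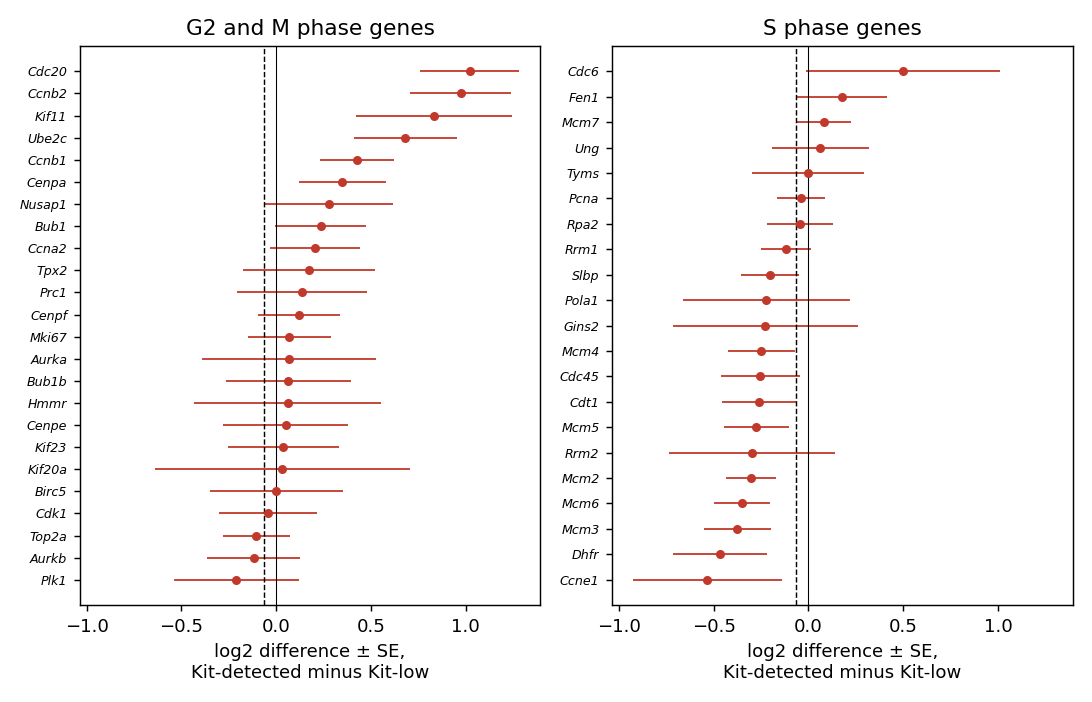
Log2 difference (Kit-detected minus Kit-low, ± SE of the limma fit, 4 lines) for the 24 genes of G2 and M phase and the 21 tested S phase genes; the dashed line marks the median of all tested genes. Cdc20 and Ccnb2 lie farthest to the right at 1.02 and 0.97, and Ccne1 farthest to the left at −0.53; no gene passed the adjusted threshold.

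Immediate early genes, which respond to handling and growth signals within minutes, were listed together with heat shock genes. Of 11 tested genes on this joint list, 4 had a positive difference, and the median was 0.01 below that of all tested genes. By line, the list median was 0.24 in GSCLC1, 0.42 in GSCLC4, −0.61 in GSC1 and 0.44 in GSC2. Ier2 was higher in Kit-detected cells of 4 of 4 lines (43.5 ± 14.4 against 22.7 ± 9.96 RPM; log2 0.93, unadjusted p = 0.0361, adjusted p = 0.872) and Junb in 3 of 4 (log2 0.91). The small heat shock gene Hspb1 had 2.24 ± 3.21 RPM in Kit-detected and 10.5 ± 5.94 RPM in Kit-low cells (log2 −2.11, unadjusted p = 0.0299, adjusted p = 0.872). Only 3 of 10 pluripotency genes were tested, and 1 of them had a positive difference. Sox2 had log2 differences of −0.04, 1.36, −3.99 and 2.39 in GSCLC1, GSCLC4, GSC1 and GSC2, which averaged −0.07 (adjusted p = 0.993).

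Of the 12 tested genes on the differentiating list, 0 had 1 sign in all 4 lines. Among all tested genes, 5.82% were positive and 7.38% negative in all 4 lines. The list could therefore give none of the 10 genes in each direction with the smallest p and 1 sign in all 4 lines. On the Kit-detected side the first was Jtb, a transmembrane protein also found at the dividing cell's midbody, at 103, 95.2, 91.6 and 87.1 RPM in Kit-detected cells of GSCLC1, GSCLC4, GSC1 and GSC2, against 44.9, 61.2, 30.2 and 34.8 RPM in Kit-low cells (log2 1.17, SE 0.28, unadjusted p = 0.00111, adjusted p = 0.872). All Kit-detected means lay above all Kit-low means. Gmcl1, the mouse germ cell-less gene, averaged 106.3, 85.0, 74.0 and 105.5 RPM in Kit-detected cells, against 37.6, 58.98, 31.2 and 42.6 RPM in Kit-low cells (log2 1.13, SE 0.28). Its line means did not overlap between the classes either. Single cells of Gmcl1 did, from 0 to 319 RPM in Kit-detected and from 0 to 296 RPM in Kit-low cells. The further genes higher in Kit-detected cells were B4galt6, 4933421E11Rik, 1810020D17Rik, Rcbtb2, Cdc20, the Slit receptor Robo1 (24.1 ± 15.98 against 3.75 ± 2.11 RPM; log2 2.31), the MHC class I chain H2-K1 (log2 1.45) and the nucleolar protein Npm1 (2356 ± 232 against 1927 ± 178 RPM; log2 0.29). Values that were not whole reads made up 62.7% of those of B4galt6 and 48.6% of those of Npm1, whose levels are uncertain for that reason. The adjusted p was 0.872 for each of these genes.

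On the Kit-low side were Zfp511, Dnajc30, Ikbkb, Rab6b, Ubxn7, Cib1, Ino80e, Mre11a and Gramd2, with log2 differences from −0.76 for Cib1 to −2.56 for Gramd2 and an adjusted p of 0.872 each. Ikbkb, a kinase of NF-kappaB signalling, averaged 4.48, 5.4, 0.557 and 3.66 RPM in Kit-detected cells of GSCLC1, GSCLC4, GSC1 and GSC2, against 18.5, 21.1, 33.5 and 19.14 RPM in Kit-low cells (log2 −2.55, SE 0.66). Mre11a, a nuclease of DNA break repair, averaged 36.9 ± 15.1 RPM in Kit-detected and 81.2 ± 35.9 RPM in Kit-low cells (log2 −1.08, SE 0.31). All 4 Kit-detected means of Ikbkb lay below all 4 Kit-low means. Its single cells overlapped, from 0 to 28.5 RPM (median 0) in Kit-detected and from 0 to 179 RPM (median 0.96) in Kit-low cells. The genes of both directions were picked by smallest p and 1 sign in every line, so the separation of their means is no added result.

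Within lines, the genes that varied most like Kit from cell to cell were ranked by the mean over the 4 lines of Spearman's rho across cells, as a description over 10111 genes with 24 to 30 cells per line, in which cells of a line share culture and depth. The highest were Zbtb7b (0.38), Mtss1l (0.38), Hoxc13 (0.37), the tryptophan-tRNA ligase Wars (0.37), Fbxw5 (0.37) and 4933421E11Rik (0.36), and the lowest were LOC100504971 (−0.41), D10Wsu102e (−0.36), the coat protein Sec13 (−0.35), Selk (−0.34), the arginine-tRNA ligase Rars (−0.29) and X99384 (−0.28). The middle 90% of genes lay between −0.14 and 0.20. Sohlh1 and Dmrtb1 lay below that range at −0.18 and −0.19, Dnmt3b within it at 0.02, and Gfra1 at its lower edge at −0.14.

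Whether the Kit difference itself differed between GSCLC and GSC lines was tested as the difference of differences, 2 lines against 2. No gene passed (0 of 10125, 0%; lowest adjusted p 0.993; 389 genes, 3.84%, at an unadjusted p under 0.05). Id4, Gfra1 (0.95, unadjusted p = 0.0232), Sohlh2 (−1.27, unadjusted p = 0.0304) and Cdc6 (−2.39, unadjusted p = 0.0134) were among those at the unadjusted level. Without GSC2, 1 gene passed, the mitotic kinase Nek9 (4.30, SE 0.64, adjusted p = 0.0405), which was named after its value was seen. In that fit GSC1 alone stands for the GSC lines and is assumed to vary like the GSCLC lines.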

How the data were processed

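The authors deposited 1 table of expression signal, as RPM for 26218 genes and 92 spike-in RNAs (6440 empty spike-in values, spike-ins left out of gene tests). The RPM are scaled to library size, per the file headers; cutadapt 1.3, TopHat 1.4.1, Cufflinks 2.2.0 and build mm10 come from the submitters' processing notes, and the treatment of multi-mapped reads was not given in the sources used here. The most frequent value above 0 in a cell was taken as 1 read; 85.6 to 92.4% of a cell's values were then whole within 0.05 read, too few for a count test. No 2 cells had identical columns.

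Each line and class gave the mean RPM over its cells, tested as log2(mean + 1) for genes with at least 5 RPM in at least 4 of 8 means (limma 3.58.1 in R 4.3.3, trended variance, line as block, Benjamini-Hochberg threshold 0.05); Kit was left out of the adjustment. The procedure was tested on simulated data. That simulation drew normal noise and did not imitate means over few single cells. The block pairs the classes within 1 culture. Cell measures and shares used the exact sign-flip test over 4 pairs, which cannot give p under 0.13. Positions and promoters are from RefSeq on GRCm38.p6, matched by Entrez identifier for 24619 genes; all 313 list genes were found.

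The members, lists and tests were chosen with earlier results of these data known. Named genes were the 10 smallest p in each direction (1 sign in every line, at least 20 RPM in the higher class), a set of germ cell genes, the largest differences of each list (4 at most) and the 6 most and least like Kit; Sohlh2, Rhox13, Bmi1, Epcam, Mcm2, Mcm6 and Ccnb1 were added after their values were seen. 1 gene that this rule names is not reported here. Alternatives changed the pseudocount, filter, cell summary, scaling, Kit threshold, block, variance model, weights, left-out cell and left-out line.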

Additional observations from a re-analysis of the deposited data

Results flagged for a closer look

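In each gene or list the 4 line differences (log2, Kit-detected minus Kit-low) were checked for a line far from the rest. Chance gives this in about 1 in 20 groups that are independent and not picked by their values. Many of these genes were picked by their differences, and all share the same cells, so that rate is no measure here. A far line was found in 9 groups, 8.82% of those checked. GSC1, with 5 Kit-detected cells, was the far line in 6 of them. Its differences were −0.82 for Etv5, −3.52 for Sycp2, 1.14 for 1810020D17Rik and −4.47 for Ikbkb, and its list medians were −0.61 for undifferentiated spermatogonia and −1.32 for the retinoic acid pathway. GSCLC1 lay apart for Crabp1, a retinoic acid carrier (−2.39), and for the S phase cyclin Ccne1 (−1.82). GSC2 lay apart for Hspb1 (0.65), which was lower in Kit-detected cells of the other lines.

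Sox3 differed in opposite directions: its mean was lower in Kit-detected cells of both GSCLC lines and higher in those of both GSC lines, a difference of −4.22 (GSCLC minus GSC, log2). The gene was under the filter on low values and so had no place in the test; fitted without the filter the difference had an unadjusted p of 0.0421 and an adjusted p of 0.883.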

How the results depend on the processing

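Under 16 alternatives the count of genes past the threshold was 0 throughout, with 374 to 862 genes at an unadjusted p under 0.05 and a lowest adjusted p of 0.689; without the line as a replicate block it was also 0 (395 at the unadjusted level). The test of GSCLC against GSC differences gave 0 to 1 genes when each line was left out, which leaves 1 line on a side that is assumed to vary like the others. With a line left out, the median of the differentiating list ran from −0.34 to −0.063, the value nearest 0 being without GSCLC1. The mean spike-in difference of −590 RPM ran from −1313 to 84.2 RPM, positive without GSCLC4. At a Kit threshold of 20 RPM the difference in genes per thinned cell was 186.5, against 396. Relative to the median of all tested genes, list medians with each line left out ran from −0.41 to 0.18 (retinoic acid), −0.14 to 0.19 (progenitor), −0.05 to 0.11 (early meiosis), −0.13 to 0.03 (Kit signalling), −0.04 to 0.28 (DNA methylation), −0.07 to 0.43 (G2 and M), −0.33 to 0.01 (S phase), −0.01 to 0.11 (germ cell core) and 0.01 to 0.12 (undifferentiated). Early meiosis lay at −0.20 with a Kit threshold of 1 RPM and DNA methylation at −0.05 with 20 RPM. Before that subtraction the median of early meiosis was 0.09 without GSC1, that of DNA methylation −0.21 at 20 RPM and that of Kit signalling 0.07 with the mean of log2 values. Some log2 differences of single genes changed sign. With the mean of log2 values these were Ccnd2 (0.065), Id4 (0.12), Lin28b (0.14), Tspan8 (0.42), Pik3cb (0.00970) and Sox2 (0.50). With a Kit threshold of 1 RPM they were Id4 (0.053), Sall4 (0.060), Dok1 (0.76), Dazl (−0.00925) and Sox2 (1.47). Sox2 also turned with a pseudocount of 10 (0.11) and with weights by cell number (0.18). With each line left out in turn, the range was −0.0050 to 0.59 for Sohlh2 (negative without GSC2), −0.52 to 0.026 for Dnmt3b (positive without GSCLC1), −0.067 to 0.31 for Ret (negative without GSC2), −0.68 to 0.38 for Id4 (positive without GSC2) and −0.39 to 0.00330 for Sall4 (positive without GSCLC1). It was −0.80 to 0.053 for Crabp1 (positive without GSCLC1), −1.20 to 0.25 for Pik3cb (positive without GSCLC4), −0.029 to 0.11 for Dazl (negative without GSC1 or GSCLC1), −0.033 to 1.10 for Cdc6 (negative without GSC2) and −0.89 to 1.24 for Sox2 (positive without GSC1). The cause was not tested. No named gene passed the threshold of the Kit comparison under any of these alternatives.

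The 4 pairs of lines, with 5 to 10 Kit-detected cells in each, limit what the test can show. The classes rest on RNA and give no measure of Kit protein. A signal of 0 is a limit of capture and depth, not a proof of absence. A mean over few cells rests on each of them.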
